A study of Sus scrofa with 48 samples.

Results

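Carboxylesterases are serine hydrolases that split ester, thioester and amide bonds. They act on many drugs and other foreign compounds and also on lipids such as triglycerides, cholesteryl esters and retinyl esters. CES1 is the main carboxylesterase of the liver and is also made by adipocytes, where it sits at the endoplasmic reticulum and on lipid droplets and takes part in basal lipolysis. CES3 is a second member of the family whose human form is known for low hydrolase activity towards drugs. A point of nomenclature matters here, because the mouse enzymes long called Ces3 are relatives of human CES1.

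The probes studied were all those that the array's own annotation named CES1 or CES3, which came to 9 of 60306 probes, 7 for CES1 and 2 for CES3. They were picked because their signal differed between the pig lines and was widely spread in one of them. The difference between lines and the spread are therefore given as a description with no test, while diet, its interaction with line and the genes around them were not used in the choice.

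Perirenal adipose tissue (PRAT), the visceral fat around the kidney, was taken from 48 growing Large White barrows aged 132 days. Pigs came from 2 lines selected in opposite directions on residual feed intake (RFI), the difference between the feed a pig eats and the feed predicted for it, so that RFIneg pigs (low RFI) are the more efficient and RFIpl pigs (high RFI) the less efficient. Within each line, 12 pigs ate a high-fat high-fiber diet (HF), in which oils took the place of part of the cereal starch and straw was added, and 12 ate a low-fat, low-fiber and starch-rich diet (LF) of similar energy content. Each pig was 1 sample on 1 one-colour array, and no pig carried an engineered allele. Values are log2 of the median spot signal minus the median of its array, so 0 is the median probe and 1 unit is a doubling; signals kept their background, which compresses differences between dim values.

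The arrays were of similar brightness, with median signals from 115 to 178 units, between 38875 and 47814 of the 60306 probes well above background and 0 saturated spots. The 6 slides each held 2 pigs of every group, and 2 scan days divided them. All 10 adipocyte markers on a list of the tissue's defining genes were measured, and their summed level was between 12.53 and 13.01 on the log2 scale in every pig. In such bulk tissue, fewer cells of a type and less RNA per cell cannot be told apart.

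The probes are 60-base sequences, and the scanner files place the 7 CES1 probes at different points of a single CES1 transcript, the first starting at base 357 and the last at base 1850. No chromosome position was given for any of them. The brightest CES1 probe, A_72_P444754, and the brighter of the probes named CES3, O1303, read almost the same stretch near the transcript's end. They shared 58 of their 60 bases, offset by 2. The first 30 bases of both are shown 5′ to 3′ because the reading of O1303 turns on them, with the shared bases in capitals.
A_72_P444754: agGGAGGGGGAATTTCTGTAGCTGCGGCCT
O1303: GGAGGGGGAATTTCTGTAGCTGCGGCCTCA
The other CES3 probe had no run of more than 6 bases in common with any of the rest. It is shown whole in lower case, followed by the CES1 probe nearest the transcript's start and the last CES1 probe before A_72_P444754, each of which had no run of more than 6 bases in common with another probe.
A_72_P254392 (CES3): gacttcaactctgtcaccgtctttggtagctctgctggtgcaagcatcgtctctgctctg
A_72_P708054 (CES1): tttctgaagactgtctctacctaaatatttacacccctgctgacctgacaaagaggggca
A_72_P746133 (CES1): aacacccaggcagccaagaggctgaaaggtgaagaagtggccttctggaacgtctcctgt
Among the remaining CES1 probes, A_72_P444749 and A_72_P223187 shared 41 bases, and A_72_P708050 and A_72_P755442 shared 29. O1303 is thus named for CES3 but holds CES1-assigned sequence, and its values below are those of a second reading of the CES1 transcript. The probes are not independent replicates, since 8 of the 9 report on sequence assigned to 1 transcript.

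CES1 signal was high in most pigs and very low in a few RFIpl pigs. With probe A_72_P444754, the 12 HF RFIneg pigs lay between 4.81 and 8.44 with a median of 7.11. The 12 LF RFIneg pigs lay between 6.95 and 8.40 with a median of 7.87. Every RFIneg pig was therefore well above the median probe, and the LF pigs were the most tightly grouped (SD 0.49, n = 12, against 0.97, n = 12, on the HF diet).

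The RFIpl pigs spread much further. On the HF diet they lay between 0.15 and 7.87 with a median of 5.93 (SD 2.67, n = 12), and on the LF diet between 2.0 and 8.01 with a median of 7.39 (SD 1.89, n = 12). The highest HF RFIpl pig had 209.6 times the signal of the lowest, and the highest LF RFIpl pig 64.4 times that of the lowest. In the RFIneg line the same ratio was 12.3 on the HF diet and 2.73 on the LF diet. The groups overlapped at the top of the range, and 5 of the 24 RFIpl pigs lay below the lowest RFIneg pig.

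**Figure D1:**
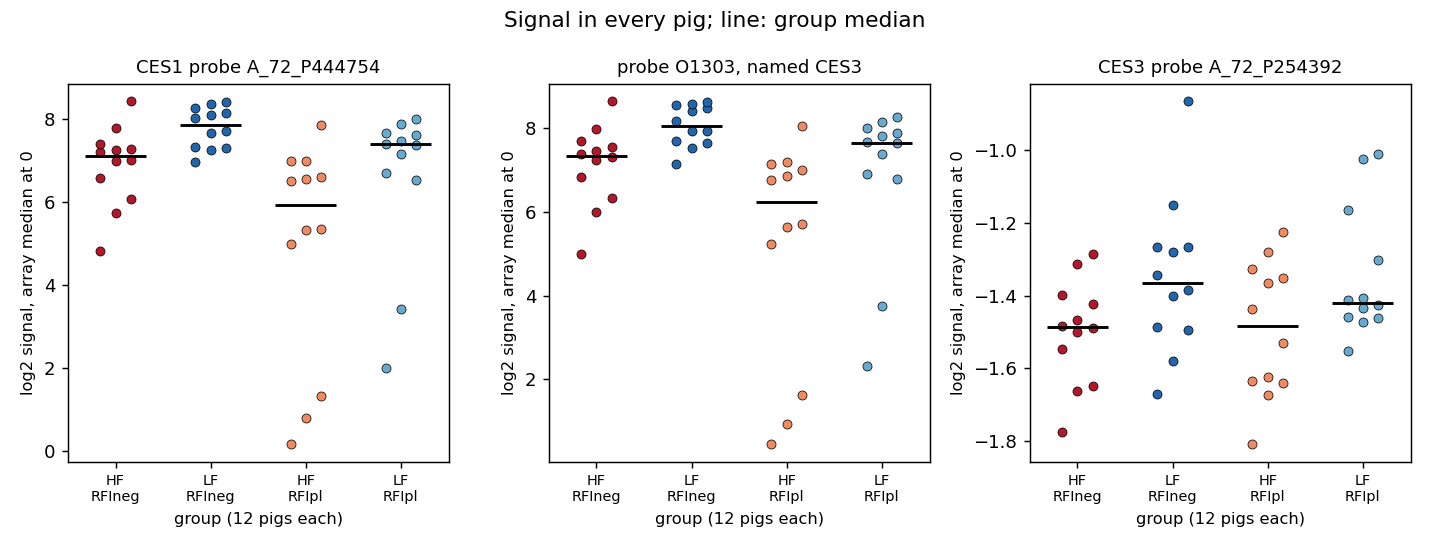
Log2 signal (array median at 0) of 3 probes in each of the 48 pigs, 12 in each group on the horizontal axis, with a line at each group median. CES1 probe A_72_P444754 and probe O1303, named CES3, show 3 HF RFIpl and 2 LF RFIpl pigs far below the others, and the dim CES3 probe A_72_P254392, drawn on its own narrower scale, shows no such pigs.

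Within each diet, the low values of the RFIpl line were separated from the rest by a gap. On the HF diet, 3 RFIpl pigs had values of 0.15, 0.78 and 1.32, and no further pig lay below 4.98, so that the empty stretch of 3.65 took up 47.4% of the group's range. Above that gap the HF RFIpl pigs were again split by a smaller one of 1.16, with 3 pigs between 4.98 and 5.35 and 6 between 6.50 and 7.87. On the LF diet, 2 RFIpl pigs had values of 2.0 and 3.42 and no further pig lay below 6.52, an empty stretch of 51.5% of the range. In the RFIneg groups the widest gap was 25.7% of the range on the HF diet and 23.3% on the LF diet. With the diets pooled, the low pigs of one diet filled the gap of the other. The 24 RFIpl pigs then ran through 0.15, 0.78, 1.32, 2.0, 3.42 and 4.98 upwards as a graded series, and their widest gap was 1.55, or 19.7% of the range, against 25.7% in the 24 RFIneg pigs.

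A comparison of 1 against 2 normal components of equal variance, by the Bayesian information criterion (BIC, for which a positive difference favours 2 components), described the same shape. The difference was 9.08 in HF RFIpl and 14.8 in LF RFIpl pigs, with 3 and 2 pigs in the lower component, and -3.15 in HF RFIneg and -1.13 in LF RFIneg pigs. With this probe and within a diet, the RFIpl groups were thus better described by 2 modes and the RFIneg groups by 1. Over both diets the difference was 14.1 in RFIpl and -0.69 in RFIneg pigs, although the pooled RFIpl values showed no wide gap. With 12 pigs in a group the criterion is a description of these pigs.

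The same pigs were low with every bright probe. In each RFIpl group, all 8 probes that the authors kept in their table gave the lowest values to the same animals, namely replicates 3, 11 and 12 on the HF diet and replicates 6 and 9 on the LF diet. Rank correlations between pairs of these probes, computed on deviations from group means, were from 0.94 to 0.99 over the 24 RFIneg pigs, which formed no separate clusters. With A_72_P746133, the 3 low HF RFIpl pigs reached down to -1.11 while the group's highest pig was at 5.67. With A_72_P708054, the probe nearest the transcript's start and the dimmest of the 7, the HF RFIpl range was from -0.46 to 2.04, the widest gap lay between the 6 lower and the 6 higher pigs, and the BIC difference was -0.75. This probe's narrower range did not separate 2 modes on the HF diet, although its 3 lowest pigs were the same ones. For HF RFIpl pigs the BIC difference was also small with A_72_P708050 (0.73) and A_72_P444749 (0.77), so these hardly preferred 2 modes. It was 3.07 with A_72_P223187, 7.61 with A_72_P755442 and 8.90 with A_72_P746133. For LF RFIpl pigs it was positive with every kept probe, from 5.49 to 15.3.

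**Figure D2:**
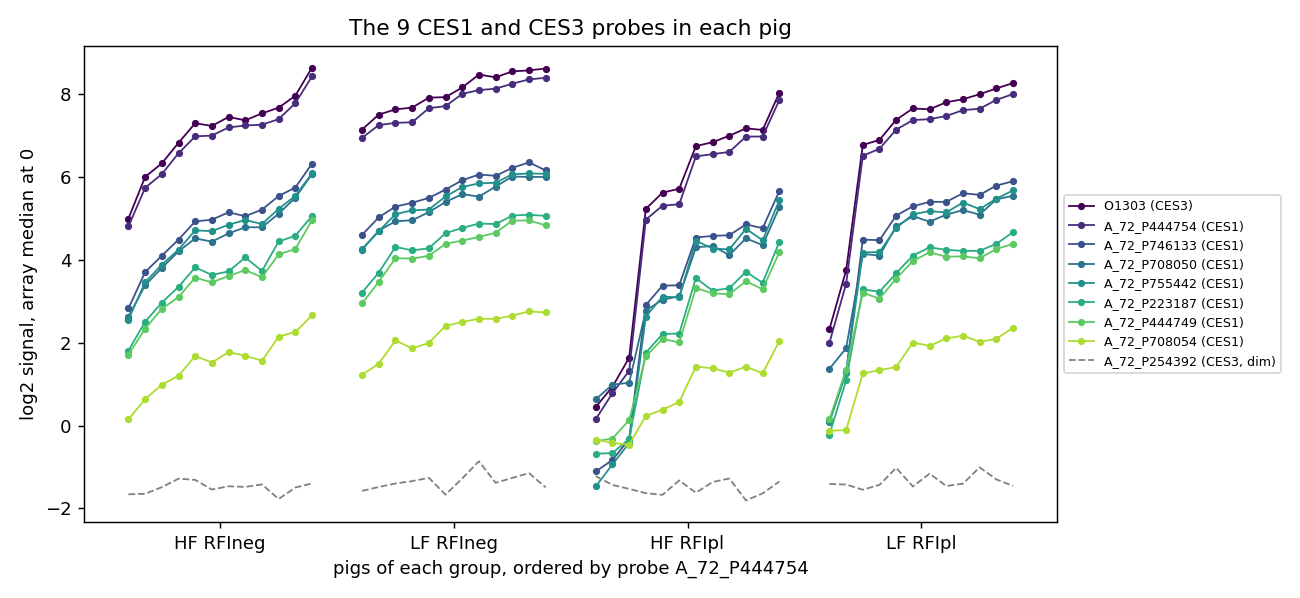
Log2 signal (array median at 0) of all 9 probes in each pig, the pigs of a group ordered from left to right by CES1 probe A_72_P444754 and each line standing for 1 probe. The 8 bright probes run in parallel and fall together in the first 3 HF RFIpl and first 2 LF RFIpl pigs, while the dashed line of the dim CES3 probe stays between -1.81 and -0.86.

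The 5 low pigs came from 4 slides and both scan days. Their arrays had between 41768 and 44461 probes well above background, inside the range of all arrays, and median signals from 121 to 157 units, the lowest of their group for HF replicate 11 and LF replicate 9. Their summed adipocyte markers lay between 12.68 and 12.88, inside the range of their groups.

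The probe O1303 gave the same picture under the name of CES3. Its values lay between 5.0 and 8.65 in HF RFIneg pigs (median 7.34), between 7.15 and 8.63 in LF RFIneg (median 8.05), between 0.45 and 8.04 in HF RFIpl (median 6.24) and between 2.33 and 8.28 in LF RFIpl pigs (median 7.65). Its gaps again lay above the 3 lowest HF RFIpl and the 2 lowest LF RFIpl pigs, and the BIC differences were 10.05 and 13.95. Across the 24 RFIneg pigs, deviations from group means correlated with those of A_72_P444754 at a Pearson's r of 0.997 and a Spearman's rho of 0.988. Both permutation p-values were 1e-05, the smallest that 100000 permutations can give, and r was 0.994 without the 2 pigs farthest from the median. The 2 probes share a run of 58 bases and were read on the same arrays, so their sequence made a high correlation certain. The test thus shows that 2 readings of 1 transcript repeat each other, and it says nothing of a second gene. Over the 24 RFIpl pigs the rank correlation was 0.998, given as a description only, because a few pigs lay far below the others.

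A further kept probe had no gene symbol in the files but carried the identifier of the CES1 transcript and shared bases with this pair. Its signal was between 0.56 and 8.03 in HF RFIpl pigs and between 7.14 and 8.57 in LF RFIneg pigs. Its rank correlation with A_72_P444754 was 0.985 over the RFIneg pigs.

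The CES3 probe with its own sequence, A_72_P254392, was near the detection limit. It was well above background on 23 of the 48 arrays, 6 in HF RFIneg, 8 in LF RFIneg, 4 in HF RFIpl and 5 in LF RFIpl pigs, and was not among the 38142 probes that the authors kept. Its values ran from -1.78 to -1.29 in HF RFIneg (median -1.49), from -1.67 to -0.86 in LF RFIneg (median -1.36), from -1.81 to -1.23 in HF RFIpl (median -1.48) and from -1.55 to -1.01 in LF RFIpl pigs (median -1.42). All groups overlapped and no pig stood far below the rest. The BIC differences were -3.93, -2.92, -0.66 and 5.23 in the same order, with 9 of the LF RFIpl pigs in the lower component. In LF RFIpl pigs the criterion thus favoured 2 components even for this dim probe with a narrow range. The wide spread of the RFIpl line was thus seen with the 8 probes that hold CES1-assigned sequence, and not with this one.

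The difference between lines, for which these probes had been chosen, was a log2 difference (RFIneg minus RFIpl) of 1.56 for A_72_P444754 and 1.54 for O1303, means over both diets. Over the 8 kept probes it ran from 0.75 to 1.56. Because the mean of the RFIpl line includes the low pigs, medians give a smaller difference, 1.18 on the HF diet and 0.47 on the LF diet for A_72_P444754. For A_72_P254392 the difference between lines was -0.01.

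Diet was not part of how the probes were chosen, and was tested. A probe was called when its raw p was under 0.01, its fold over 1.1 and its Benjamini-Hochberg adjusted p under 0.08, from limma over all 38142 kept probes. On the HF diet 6 of the 8 kept probes were called lower and none higher, while 15.5% of all kept probes were called lower and 8.97% higher. The 8 differences (HF minus LF) were all negative, from -1.30 to -0.76 on the log2 scale. Since all 8 read 1 transcript, this is 1 result and not 8.

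The 2 brightest probes straddled the threshold. In A_72_P444754 the HF mean was lower than the LF mean by a factor of 2.43 (log2 difference -1.28, SE 0.48, limma p = 0.0102, adjusted p = 0.0369) and the probe was not called. In O1303 the factor was 2.47 (log2 difference -1.30, SE 0.48, limma p = 0.00884, adjusted p = 0.0331) and it was called. In A_72_P708054 the factor was 1.69 with the smallest error (log2 difference -0.76, SE 0.21, limma p = 0.000583, adjusted p = 0.00434). Under other processing settings each of A_72_P444754 and O1303 crossed the threshold, while the direction stayed the same. The groups overlapped, and 17 of 24 pigs on HF had values under the mean of those on LF with A_72_P444754.

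**Figure D3:**
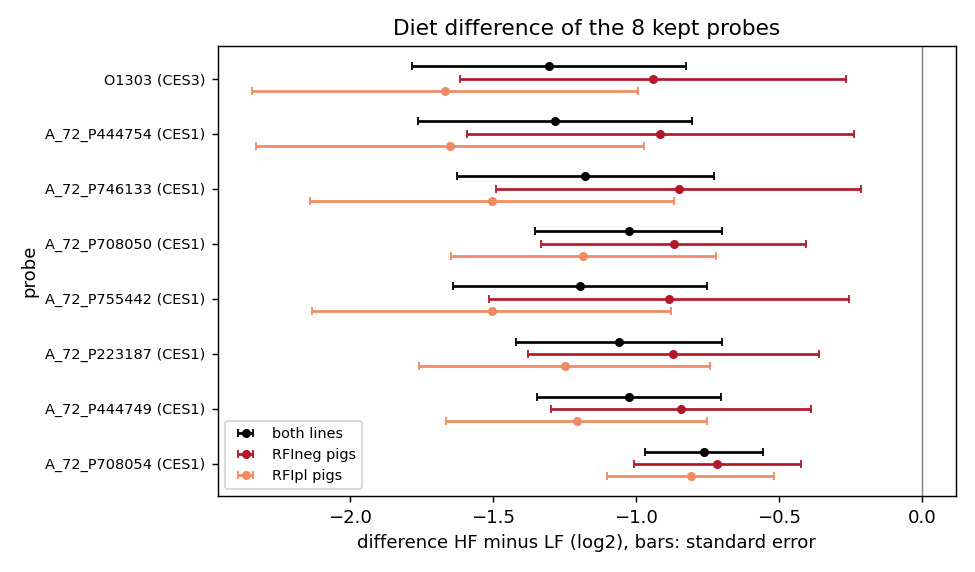
Difference between diets (HF minus LF, log2) for the 8 kept probes, with bars for the standard error, over both lines and within each line, all from 1 fit over 48 pigs. All points lie below 0, from -1.67 to -0.71, and the bars of the 2 lines overlap for each probe.

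Diet was also taken within each line. For A_72_P444754 the difference was -0.91 in RFIneg and -1.65 in RFIpl pigs, and in O1303 -0.94 and -1.67. With the error pooled over all 4 groups, none of the 8 kept probes was called in RFIneg pigs (adjusted p from 0.103 to 0.403, limma), against 8.69% of all kept probes called lower there, and 1 of the 8 had an unadjusted p under 0.05. In RFIpl pigs 1 of the 8, A_72_P708054, was called lower (adjusted p = 0.0569, limma), against 10.6%.

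That pooled error mixes groups whose SDs ran from 0.49 to 2.67, so each line was also fitted alone, an analysis chosen after the spread had been seen. With their own error, the 24 RFIneg pigs gave all 8 kept probes as called lower on the HF diet, against 8.62% of all kept probes. For A_72_P444754 the difference was -0.91 (SE 0.29, limma p = 0.00438, adjusted p = 0.0472) and 11 of 12 pigs on HF had values under the mean of those on LF. The 24 RFIpl pigs alone gave none of the 8 as called, against 9.56% of all kept probes, with adjusted p from 0.104 to 0.229 in limma and an unadjusted p under 0.05 in 3 of the 8. There the difference of A_72_P444754 was -1.65 with an SE of 0.88. The probes were picked for their wide spread in RFIpl pigs, and that spread sets this SE. The lack of calls in RFIpl pigs was therefore partly fixed by the choice, and the calls of the 2 lines cannot be compared.

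Permuting diet labels within line, also chosen afterwards, gave p = 0.00600 for the means of A_72_P444754 in RFIneg pigs and p = 0.0930 in RFIpl pigs (two-sided permutation tests, 100000 permutations). On ranks, which give the low pigs no more weight than their order, p was 0.00985 in RFIneg and 0.0205 in RFIpl pigs, and 0.000420 over both lines. Adjusted over the 12 such tests made for A_72_P444754 and O1303, these became 0.0173, 0.0930, 0.0173, 0.0273 and 0.00276. For the means over both lines, the permutation test gave p = 0.0117, or 0.0175 after the same adjustment. The spread in RFIpl pigs for which the probes were picked also enters the tests of means that include that line. The median of the HF pigs was lower than that of the LF pigs by 0.76 in RFIneg (log2 difference -0.76) and by 1.47 in RFIpl pigs (log2 difference -1.47).

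The difference of the diet effect between lines was not detectable. The interaction was 0.74 (SE 0.96) for A_72_P444754 and 0.73 (SE 0.95) for O1303, with limma p-values of 0.446 and 0.450. Adjusted p was 0.9999 for all 8 kept probes, and none of the 38142 kept probes was called (0%). At an unadjusted p under 0.05 the interaction passed in 826 of all kept probes and in 0 of the 8. The errors exceeded the estimates, so a difference between lines of the size of the diet effect itself was not detectable with 12 pigs in a group.

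Every slide held all 4 groups. Within the 2 scan days, the diet difference of A_72_P444754 was -0.98 and -1.58. Within the 6 slides, each with 4 HF and 4 LF pigs, it ran from -3.38 to 0.43 and was negative on 5. The line difference ran from -0.63 to 3.40 over the same slides and was positive on 5.

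The probe A_72_P254392 was tested only in the fit without the authors' filter. There it differed by -0.15 between diets (SE 0.05, limma p = 0.00684, adjusted p = 0.0386) and was called lower, as were 11.4% of the 60306 probes, and its interaction had an adjusted p of 0.9999. The difference was smaller than the SD of 0.21 among LF RFIneg pigs, and only 23 of the 48 spots were well above background.

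Markers of other cell types were set beside these results. Of 10 macrophage markers 7 were called higher on the HF diet, where 6.26% of all genes were, and none by line. The summed macrophage level was from 5.78 to 8.61 in HF RFIneg, from 5.57 to 8.31 in LF RFIneg, from 6.19 to 8.60 in HF RFIpl and from 6.14 to 7.36 in LF RFIpl pigs. The 3 low HF RFIpl pigs were at 6.19, 8.41 and 6.84 and the 2 low LF RFIpl pigs at 6.96 and 7.36, so they fell across their groups' ranges. The part of macrophages in the diet difference was not tested. None of the 6 endothelial or 7 fibroblast and preadipocyte markers was called by diet or line. Of the 10 adipocyte markers, LEP, CIDEC and GPD1 were called lower and PCK1 higher on the HF diet, and none was called by line. Of the 3 genes measured from a brown fat list, CIDEA and COX7A1 were called lower on the HF diet. The defining gene UCP1 had no kept probe, so this list does not establish that brown fat was present. The only kidney marker measured, AQP2, and 1 of 3 erythrocyte markers were called lower on the HF diet. Of 6 T and NK cell markers 1 was called higher on the HF diet, and none of 5 adrenal markers was called.

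Summed levels of some of these lists moved with CES1 inside the groups. The rank correlations with A_72_P444754, 12 pigs in each, are given as a description in the order HF RFIneg, LF RFIneg, HF RFIpl and LF RFIpl. The 3 measured genes of the brown fat list followed CES1 upwards in all 4 groups (0.57, 0.62, 0.43 and 0.54). Adipocyte markers had lower positive values (0.49, 0.42, 0.24 and 0.34). Endothelial markers (0.49, 0.13, 0.48 and 0.41) showed little relation in LF RFIneg pigs, and erythrocyte markers (0.38, 0.46, 0.01 and 0.59) none in HF RFIpl pigs. The endothelial list includes CDH5, which is named below as a gene most like CES1 in these same data. Fibroblast and preadipocyte markers ran the other way (-0.58, -0.23, -0.24 and -0.44), as did macrophage markers (-0.43, -0.11, -0.15 and -0.21). The lists of T and NK cells, adrenal gland and hepatocytes had values of both signs. The summed level of the brown fat list was from 8.07 to 9.17 in HF RFIneg, from 8.51 to 9.38 in LF RFIneg, from 8.17 to 9.0 in HF RFIpl and from 8.46 to 9.38 in LF RFIpl pigs. The 5 pigs with the lowest CES1 had 8.49, 8.73 and 8.93 on the HF diet and 8.99 and 9.14 on the LF diet, inside those ranges. The part of these cell types in the CES1 values was not tested.

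Liver genes needed a separate look, as CES1 is abundant in liver. Of 7 hepatocyte markers measured none was called by diet or line. Their summed level was from 7.96 to 8.91 in HF RFIneg, from 7.76 to 10.03 in LF RFIneg, from 8.03 to 8.59 in HF RFIpl and from 7.80 to 11.04 in LF RFIpl pigs. APOA1, bright in every pig (from 7.39 to 8.93), weighs heavily in this sum, so the sum hides much of the variation of dimmer genes. ALB, which encodes albumin, ranged from -1.44 to 6.04 in HF RFIneg (median 2.06), from -1.12 to 8.03 in LF RFIneg (median 1.97), from -1.65 to 2.32 in HF RFIpl (median 0.21) and from -1.12 to 9.11 in LF RFIpl pigs (median 1.62). Its group differences, -1.51 for diet and 1.52 for line, had the same signs as those of CES1 (adjusted p = 0.165 and 0.462, limma). TTR, SERPINA1, TF and HP had these signs too, with diet differences of -1.53, -1.39, -1.35 and -1.08. Their line differences were 1.42, 1.39, 0.94 and 0.94. Diet and line differences were small for APOA1 (-0.01 and -0.16) and APOA2 (-0.13 and 0.07). The 3 HF RFIpl pigs with low CES1 had, in ascending order of CES1, ALB values of 1.21, 0.26 and 0.48, all above the median of their group, and the 2 LF RFIpl pigs had -1.12 and 3.21. The rank correlation of ALB with CES1 inside a group was 0.25, 0.08, -0.39 and 0.15 in the same order. The part of liver RNA in the group means was not tested.

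Other genes that act on the same substrates were taken from lists, and their counts are read against 8646 genes with a kept probe, of which 19.3% were called lower and 6.26% higher on the HF diet, 1.87% higher and 1.39% lower in RFIneg pigs. Over single probes, 1.83% of those kept were called higher in RFIneg pigs. A gene is represented by its brightest probe.

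Of 24 neutral lipid hydrolases and their partners, 6 were called lower on the HF diet and none higher. PNPLA3, a lipase of lipid droplets, fell by 1.23 on the log2 scale (adjusted p = 1.6e-05, limma), CIDEA, a lipid droplet protein, by 0.42 and MGLL, which cleaves monoglycerides, by 0.37. The main adipocyte lipases did not pass: PNPLA2, which starts triglyceride breakdown, differed by 0.02 and LIPE, hormone-sensitive lipase, by -0.14. By line, FAAH, a fatty acid amide hydrolase, was higher in RFIneg pigs by 0.83 (adjusted p = 0.000108, limma) and PLIN2, a lipid droplet coat protein, by 0.66, while CEL, the bile salt-dependent lipase, was lower by 0.53 (log2 difference -0.53).

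Of 14 xenobiotic and other esterases, 4 were called lower on the HF diet, 3 were called higher in RFIneg pigs and 1 lower. The paraoxonases PON3 and PON1, lactonases best known from liver and lipoproteins, were higher in RFIneg pigs by 1.29 and 1.19 (adjusted p = 0.00017 and 0.00016, limma). Their group means were 8.82 and 9.23 for PON1 in HF and LF RFIneg pigs, and 7.87 and 7.80 in HF and LF RFIpl pigs. The paraoxonases thus differed by line with a diet difference of -0.17 for PON1 and -0.18 for PON3, neither called. EPHX1, the microsomal epoxide hydrolase, was lower on the HF diet by 0.62 (log2 difference -0.62) and higher in RFIneg pigs by 0.54, both called. PLA2G7, a phospholipase that degrades platelet-activating factor, was lower in RFIneg pigs (log2 difference -0.44).

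Of 21 phase I and II enzymes, which oxidise and conjugate foreign compounds, 8 were called lower and 1 higher on the HF diet. SULT2A1, a sulfotransferase, fell by 1.79 on the log2 scale, CYP2D25 by 1.20 and ALDH1A1, which makes retinoic acid, by 0.75. By line, CYP1A2 was higher by 0.55 and ALDH1A1 by 0.35 in RFIneg pigs, and CYP2B22, a cytochrome P450, was lower (log2 difference -1.08).

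Of 18 genes for triglyceride and cholesteryl ester synthesis, 6 were called lower and 2 higher by diet, among them AGPAT1 (-0.40) and AGPAT2 (-0.39), acyltransferases of glycerolipid synthesis, and AGPAT9 (0.58), and none by line. Of 18 transcription factors known to act on carboxylesterase genes, 4 were called lower and 1 higher on the HF diet and none by line. PPARD fell by 0.67 and GADD45A by 0.46, and CEBPA by 0.21, while PPARA rose by 0.53. Of 11 genes of retinoid metabolism, 2 were called lower, ALDH1A1 among them, and 3 higher, and DHRS4, a retinol dehydrogenase, and ALDH1A1 were higher in RFIneg pigs. Of the carboxylesterase family itself, CES2, CES4A and CES5A were not measured here.

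The genes on either side of the carboxylesterases were looked at next. In the RefSeq annotation of Sscrofa11.1, both genes are on chromosome 6 with 71 genes between them. Of the 5 genes on each side of CES1, NUDT21 and LPCAT2 had a kept probe, and neither was called by diet or line (differences from -0.05 to 0.03). Of those around CES3, RRAD was higher on the HF diet by 0.44 (adjusted p = 0.00995, limma) and CBFB was lower (log2 difference -0.15), while FAM96B was not called, and none of the 3 was called by line. The rank correlation of these 5 genes with A_72_P444754 was from -0.34 to 0.28.

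Over all 38134 other kept probes, the 2 with a rank correlation above 0.7 with A_72_P444754 on deviations from group means in 48 pigs were the probe without a symbol described above and a probe of DYNC1LI2, a light intermediate chain of the dynein motor (rho = 0.72). The 8 named genes most like CES1 were DYNC1LI2, CDH5 (0.62), the cadherin of endothelial junctions, PPP1R13B (0.61), SIRT2 (0.59), TNIP1 (0.58), ANAPC16 (0.58), BLMH (0.57) and PRPF6 (0.57). Within the RFIneg line these values were 0.49 for DYNC1LI2, 0.34 for CDH5 and 0.75 for SIRT2. The 4 genes most opposed were HELLS (-0.55), RAB31 (-0.53), TNC (-0.52) and JAM3 (-0.52). For O1303 the 8 most like genes were the same, in another order. The values over 48 pigs include the RFIpl pigs that lay far below the others in CES1. All these points share arrays and centring, and the genes were picked as extremes, so no p is given.

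Both of the closest genes lie on chromosome 6, DYNC1LI2 11 genes and CDH5 21 genes from CES3, and 83 and 93 genes from CES1. DYNC1LI2 signal was between 5.37 and 5.97 in HF RFIneg, between 5.56 and 6.04 in LF RFIneg, between 5.11 and 5.73 in HF RFIpl and between 4.88 and 6.09 in LF RFIpl pigs. CDH5 signal was between 5.07 and 5.73 in HF RFIneg, between 5.15 and 5.74 in LF RFIneg, between 4.25 and 5.97 in HF RFIpl and between 4.84 and 5.74 in LF RFIpl pigs. In ascending order of CES1, the 3 lowest HF RFIpl pigs had CDH5 values of 4.25, 4.6 and 4.37, the 3 lowest of that group, and the 2 LF RFIpl pigs with the lowest CES1 had 4.84 and 4.93. The same 5 pigs had DYNC1LI2 values of 5.11, 5.21 and 5.19, and 4.88 and 5.35. The range of these genes is narrow beside that of CES1. A second DYNC1LI2 probe followed CES1 with a rank correlation of 0.64 and the remaining, dimmest one with -0.000977.

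**Figure D4:**
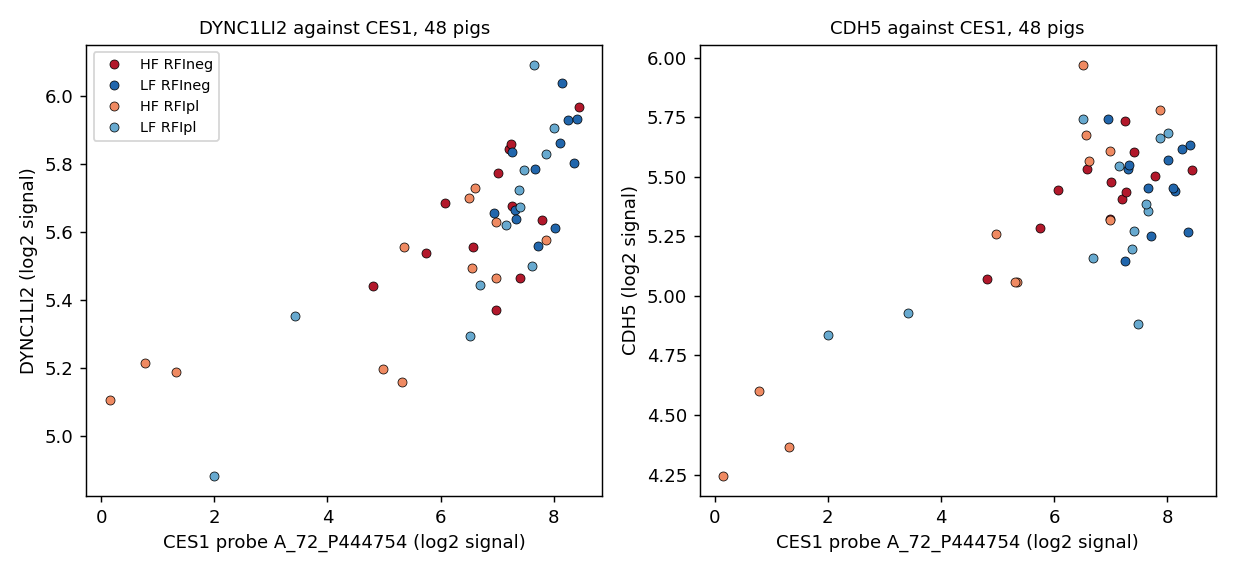
Log2 signal (array median at 0) of DYNC1LI2 and of CDH5 on the vertical axes against CES1 probe A_72_P444754 on the horizontal axis, 1 point for each of the 48 pigs, coloured by group. The 5 RFIpl pigs with CES1 below 4 have CDH5 between 4.25 and 4.93 and DYNC1LI2 between 4.88 and 5.35, and some other pigs lie inside those ranges.

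DYNC1LI2 was higher in RFIneg than in RFIpl pigs by 0.21 (SE 0.07, adjusted p = 0.0752, limma) and was called, and CDH5 differed by 0.20 (SE 0.10, adjusted p = 0.359) and was not. The 6 endothelial markers, CDH5 among them, had a summed level in the 5 low pigs of 8.16, 7.97 and 8.24 on the HF diet and of 8.06 and 8.04 on the LF diet. The ranges of those groups were from 7.97 to 8.50 and from 7.86 to 8.49. The part of endothelial RNA in the CES1 values was not tested.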

How the data were processed

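RNA of 48 pigs was read on one-colour Agilent porcine arrays. The authors deposited scanner intensity values for each spot, used here as the median signal without background subtraction, and a table of normalized log2 values made, per the labels, in R 2.10.0. The row names of that table disagree with its values, so its rows were matched to spots by value (within 1e-06 log2) and used only to know which 38142 of 60306 probes the authors kept. Genes are named as in the scanner files. Here each log2 signal was centred on the array median over non-control probes. Diet, line and their interaction were fitted to 48 arrays with limma 3.58.1 (R 4.3.3) and adjusted by Benjamini-Hochberg over all kept probes. On simulated data 194 of 200 changed probes were recovered for diet, and 14 unchanged probes were called. There each probe had normal noise of equal spread in all groups, so the result does not cover probes with unequal spread, such as those of CES1. Components were fitted with mclust 6.1.1, and permutations and correlations computed with Python 3.11.15, numpy 2.4.6, pandas 2.3.3 and scipy 1.17.1. Where a gene had several probes, the brightest was used. The genes named are the members, the 8 most and 4 least like CES1 or CES3 in rank correlation, 5 genes on each side, and the largest called differences of each list. The members and lists were chosen with earlier results of these data known. Replicates are different pigs, so p-values measure the spread between pigs. Of 72 same-numbered pairs of samples in different groups 38 had deviations correlated over 0.1 (lowest -0.27). The mean correlation was 0.106 for same-numbered pairs and -0.0095 for pairs with other numbers. It was 0.046 for pairs on the same slide with other numbers. Of the 48 samples, 18 correlated best with their own number. Same-numbered pigs thus shared some deviation, which the main fit did not model, and a fit with the replicate number as a block is given below. Other centrings, normalizations, filters, blocks, weights and left-out pigs were tried. Fits of 1 line alone and permutation tests were chosen after seeing the data.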

Additional observations from a re-analysis of the deposited data

How the results depend on the processing

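No direction changed under any alternative run. The diet difference of CES1 (A_72_P444754), not called as reported, was called without the filter (-1.28), without the interaction term (-1.28), with array weights (-1.39), as the mean of the 7 CES1 probes (-1.07) and in RFIneg pigs alone (-0.91). That of O1303, called as reported, lost the call with 75th percentile centring (-1.28), with the processed signal (-1.30), with normexp and quantile normalization (-1.21), with quantile normalization (-1.23), with two-way ANOVA (-1.30), in RFIpl pigs alone (-1.67) and with the permutation test of means (-1.30). With the replicate number as a block, the difference was -1.28 for CES1, which stayed not called, and -1.30 for O1303, which lost its call at p = 0.01002 in limma. Leaving out 1 pig at a time gave -1.49 to -1.06 for CES1, called without 11 of the 48 pigs (HF RFIneg 1 and 12, HF RFIpl 2, 4, 5, 7, 8 and 10, LF RFIneg 7, LF RFIpl 6 and 9). It gave -1.51 to -1.09 for O1303, which lost its call without 27 of the 48 pigs (HF RFIneg 4, 5, 7, 9 and 10, HF RFIpl 3, 9, 11 and 12, LF RFIneg 1, 2, 4, 6, 8, 9, 10 and 12, LF RFIpl 1, 2, 3, 4, 5, 7, 8, 10, 11 and 12). The interaction was not called under any of 14 alternatives or without any pig, and the SD of CES1 in a group ran from 0.44 to 2.78 over its 24 alternatives. Background light in the signals limits what can be said of the dim CES3 probe.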

Other observations

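DYNC1LI2 and CDH5 were set against the other genes of chromosome 6. Among 60 measured genes within 100 genes of CES1, these 2 had a rank correlation with CES1 over 0.5 (3.33%), and the median was 0.03. On the rest of the chromosome 3 of 746 genes had one (0.402%), and over all 8644 other genes 22 (0.255%). This pair lies 83 and 93 genes from CES1, at the far side of the window. It had already been picked as the genes most like CES1, so its share in the window is a description and no test. The measured genes within 5 genes of CES1, NUDT21 and LPCAT2, had rank correlations of -0.07 and -0.05. A relation of CES1 to the region was not tested.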
